A study of Homo sapiens with 18 samples.

Results

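Posterior neural ectoderm (pNE) is the earliest cell population on the route from human pluripotent stem cells to hindbrain in this study, and it was compared here with the undifferentiated cells it came from (hPSC). The comparison rests on 4 of the 18 RNA libraries, 2 of pNE at day 2 and 2 of hPSC at day 0, chosen by their labels. Another pair of libraries, anterior neural ectoderm (aNE) at day 2, is used to show where pNE differed from its forebrain-directed counterpart. All cells were of H1, an established wild-type human embryonic stem cell line, so the libraries of a group are biological replicates of 1 line.

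The hPSC were kept in mTeSR Plus, a medium that maintains pluripotency. For pNE and aNE alike, day 1 was spent in the defined medium CDM2 with A8301 at 1 µM (an inhibitor of NODAL and activin receptors), LDN193189 at 100 nM (an inhibitor of BMP receptors), trametinib at 250 nM (an inhibitor of the kinase MEK, upstream of ERK) and C59 at 1 µM (a porcupine inhibitor that stops the secretion of WNT ligands). Cells were then detached with Accutase and replated at 37500 per cm2 for day 2, with thiazovivin at 1 µM, an inhibitor of the kinase ROCK that helps single cells survive. On day 2 the pNE medium held A8301 and LDN193189 at the day 1 doses, TTNPB at 50 nM (a synthetic agonist of retinoic acid receptors), FGF2 at 20 ng/mL (a growth factor that activates ERK) and XAV939 at 1 µM (a tankyrase inhibitor that lowers WNT signalling inside the cell). The aNE medium held A8301, LDN193189 and C59 in place of these, with neither TTNPB, FGF2 nor XAV939. The pNE and hPSC cultures therefore differed in day, base medium, replating and every agent at once, and the parts of these cannot be told apart.

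The posterior nervous system is patterned largely by retinoic acid. Retinol is taken up, oxidised to retinoic acid and carried to nuclear receptors of the RAR and RXR families, which bind paired short sites in DNA and switch on HOX genes, other hindbrain regulators and the enzymes that break retinoic acid down again. FGF signalling acts beside it through MEK and ERK, and ERK in turn induces its own inhibitors of the Sprouty and DUSP families. HOX genes of the lowest group numbers are the first to be used and mark the hindbrain, while higher numbers mark the spinal cord.

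The best known DNA element for retinoic acid receptors is a direct repeat of 2 short sites 5 bases apart, called DR5. The site AGGTCA and its variants AGTTCA, also GGGTCA, as well as GGTTCA were searched on both strands in the RefSeq promoter windows of build GRCh38.p14, each reaching from 250 bases before to 50 bases after an annotated start. Such a repeat was present in 31 of 35116 windows (0.0883%), and in 11 of the 16228 windows of the genes tested below (0.0678%). Among the genes called higher in pNE, 2 of 1410 windows held it (0.142%), and among the genes called lower none of 981 did. The 2 windows belong to RARB, a retinoic acid receptor, and CYP26A1, the enzyme that degrades retinoic acid, whose expression in pNE is described below. They are printed in the sense of the gene, with the repeat in capitals, to show what such an element looks like at genes that rose.

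RARB, 150 bases before a start, chr3:25428113-25428262, plus strand: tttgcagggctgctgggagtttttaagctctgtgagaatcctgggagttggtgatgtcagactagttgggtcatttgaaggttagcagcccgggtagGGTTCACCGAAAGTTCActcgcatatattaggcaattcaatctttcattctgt
CYP26A1, 29 bases around the repeat, chr10:93073797-93073825, plus strand: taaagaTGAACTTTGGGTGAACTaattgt

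In RARB the repeat lay 53 to 37 bases before one of 4 annotated starts, within the span of the longer transcripts and outside annotated exons. In CYP26A1 it read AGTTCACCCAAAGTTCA on the minus strand, 90 to 74 bases before one of 2 annotated starts, inside an annotated untranslated region of a longer transcript. A match of letters is a description of the DNA and does not show that a receptor was bound.

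Values are TPM, transcript abundances scaled to 1 total in every library, which hold no read count or sequencing depth. Between 14175 and 14679 genes reached 1 TPM in each of the 4 libraries. Replicates correlated at r = 0.984 for pNE and 0.985 for hPSC over the genes tested on the log2(TPM + 1) scale, a pNE and an hPSC library at 0.912 to 0.919, and a pNE and an aNE library at 0.964 to 0.965. These are correlations across genes, which are not independent replicates. Transcripts of the mitochondrial genome made up 0.960% and 1.23% of the TPM in hPSC and 2.96% and 3.74% in pNE.

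The labels were checked on marker genes. All 9 markers of undifferentiated cells were lower in pNE, 4 of them below 1 TPM there, and their summed level was 4287 and 4303 TPM in hPSC against 509 and 481 TPM in pNE. Of 9 neural ectoderm markers, 5 were higher (3 of which were below 1 TPM in both hPSC libraries), 2 did not pass the test (SOX2 and ZIC2), and 2 stayed below the filter (ZIC1 and HES5, the latter listed at 0 in both pNE libraries). PAX6 and SOX1, which define the neural plate, were present at 1.34 and 2.54 TPM and at 1.05 and 1.22 TPM in pNE. ZIC2, SOX2, SOX3, SOX21 and CDH2 were all above 50 TPM in both pNE libraries, ZIC2 and SOX2 at levels that did not pass the test against hPSC.

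Of the 14773 genes tested, 1212 were called higher in pNE than in hPSC (8.2%) and 972 lower (6.58%). A gene was tested if it reached 1 TPM in at least 2 of the 4 libraries. It was called if limma, a linear model fitted across all genes, gave a Benjamini-Hochberg adjusted p under 0.05 and the log2 fold change was at least 1 in size. The model was fitted to all 18 libraries, so each SE and adjusted p draws on the spread within all 9 groups. They do not measure the spread of the 4 compared libraries alone. Fold changes are differences of log2(TPM + 1), a scale on which low genes show less than their full change. The median of all genes tested was 0.04. Called rises had a median size of 1.48 and called falls of 1.44, and 42 rises but 12 falls reached 4. Of the genes called higher, 72 were listed at 0 in both hPSC libraries, and 22 of those called lower were listed at 0 in both pNE libraries. A gene below 1 TPM in both libraries of 1 group could be tested only by being higher in the other group, so its direction follows from the filter, and such members are named or counted apart for the lists below that hold the most of them. These are bulk samples, in which fewer cells using a gene and less of its RNA per cell cannot be told apart.

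**Figure D1:**
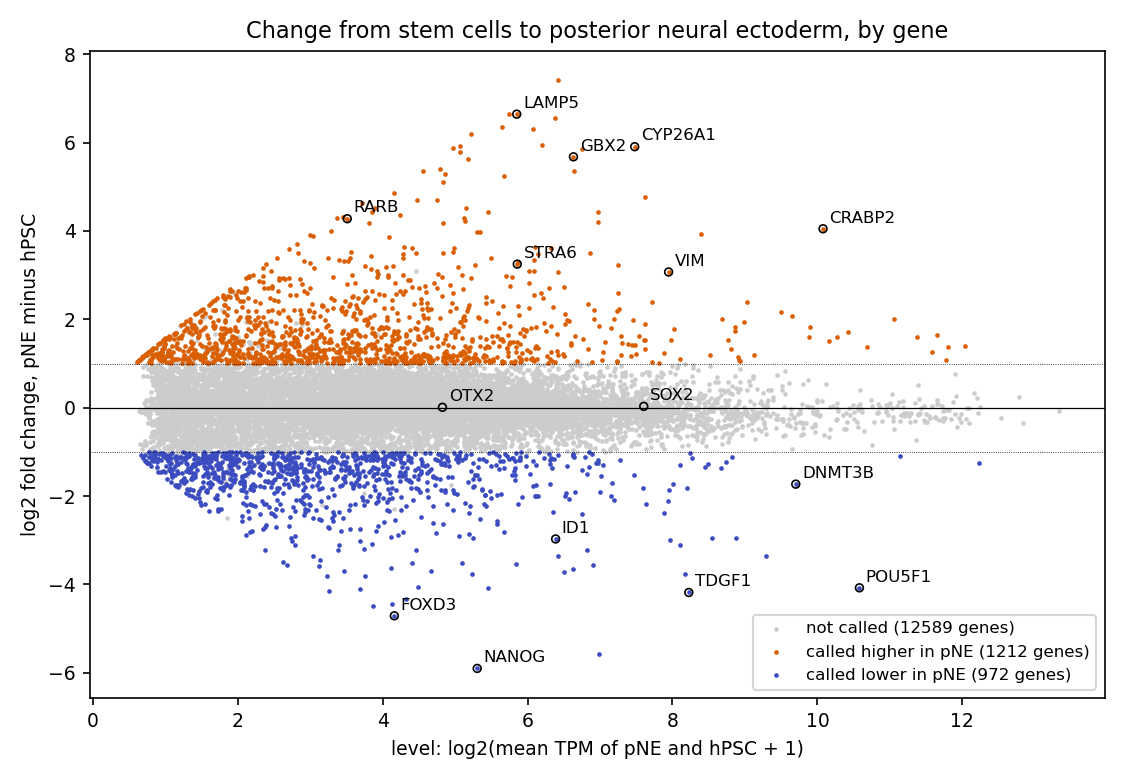
Log2 fold change between pNE and hPSC against level for the 14773 genes tested, each dot 1 gene, with 1212 genes called higher in orange and 972 called lower in blue. LAMP5, CYP26A1 and GBX2 stand near the top, CRABP2 combines a fold change of 4.05 with one of the highest levels, NANOG lies lowest, and SOX2 and OTX2 lie on the line of no change.

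The genes with large rises included transcription factors of the posterior and early neural plate and components of retinoid metabolism, while those with large falls were led by the pluripotency network. Named by size of change with no overlap between groups and a level of 5 TPM or more where it was higher (without the level rule, the groups did not overlap upward for 38.2% and downward for 32.9% of all genes tested), the rises given here were LAMP5, ZNF503, TMEM88, MEIS2, ANXA1, GREB1L, FNDC5, DLX5, CYP26A1, SIX3 and PRTG, with fold changes from 6.64 down to 5.86. LAMP5, a lysosome-associated membrane protein best known from neurons, rose from 0.0985 and 0.188 TPM in hPSC to 117 and 109 TPM in pNE (log2 fold change 6.64 ± 0.21 SE, adjusted p = 3.56e-11). ZNF503, a zinc-finger repressor of the NET family used in the vertebrate hindbrain, was listed at 0 and at 0.0981 TPM in hPSC and stood at 88.1 and 122 TPM in pNE (6.64 ± 0.17, adjusted p = 7.22e-12). LAMP5, ZNF503, MEIS2, ANXA1, GREB1L, DLX5 and SIX3 were below 1 TPM in both hPSC libraries and passed the filter only through pNE. Their direction thus follows from the filter, and separation of the groups was a condition for naming them.

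TMEM88, a membrane protein that dampens WNT signalling, stood at 0.253 and 1.47 TPM in hPSC and 155 and 172 TPM in pNE. GREB1L, a cofactor linked to retinoic acid and steroid receptors, went from 0.00832 TPM and 0 to 67.8 and 76.9 TPM. ANXA1, a calcium-dependent phospholipid-binding protein, went from 0.736 and 0.584 TPM to 154 and 111 TPM, and FNDC5, the precursor of the secreted peptide irisin, from 1.68 and 1.05 TPM to 136 and 151 TPM. All of these stood far above their hPSC levels in both pNE libraries. PRTG, a receptor of the DCC family named protogenin, rose from 3.05 and 2.24 TPM to 200.1 and 219.7 TPM (5.86 ± 0.15, adjusted p = 6.68e-12). DLX5, a homeobox gene of the neural plate border and placodes, rose from 0 and 0.185 TPM to 58.9 and 71.5 TPM (5.92 ± 0.15, adjusted p = 7.75e-12). Several of these genes were high in aNE as well, TMEM88 at 123 and 139 TPM and GREB1L at 123 and 122 TPM. Neither was called between pNE and aNE (0.32 and -0.75), nor were DLX5 (0.44) and PRTG (0.96). ANXA1 and FNDC5 were called higher in pNE than in aNE (2.35 and 2.97).

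The falls named in the same way were NANOG, HLA-DPB2, FOXD3, IDO1, GHRHR, HSD11B2, TDGF1, HLA-DPA3, FAM120A2P, LCK, POU5F1 and GLB1L3, with fold changes from -5.90 to -4.07. HLA-DPB2, HLA-DPA3 and FAM120A2P are pseudogenes or close copies of other genes, so their reads could have been shared with relatives. IDO1, which degrades tryptophan, stood at 26.9 and 26.7 TPM in hPSC and at 0.395 and 0.104 TPM in pNE. HSD11B2, which inactivates cortisol, stood at 37.2 and 36.9 TPM in hPSC and 0.641 and 1.19 TPM in pNE, and LCK, a tyrosine kinase best known from T cells, went from 84.4 and 79.7 TPM to 4.12 and 3.66 TPM. Separation between the groups was a condition for naming these genes. NANOG, FOXD3, IDO1, HLA-DPA3 and FAM120A2P were below 1 TPM in both pNE libraries and passed the filter only through hPSC, so their direction follows from it. GHRHR, the receptor of growth hormone-releasing hormone, differed within pNE, with 0 and 1.35 TPM in the pNE libraries against 32.1 and 32.8 TPM in hPSC (-4.45 ± 0.64, adjusted p = 8.98e-05).

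**Figure D2:**
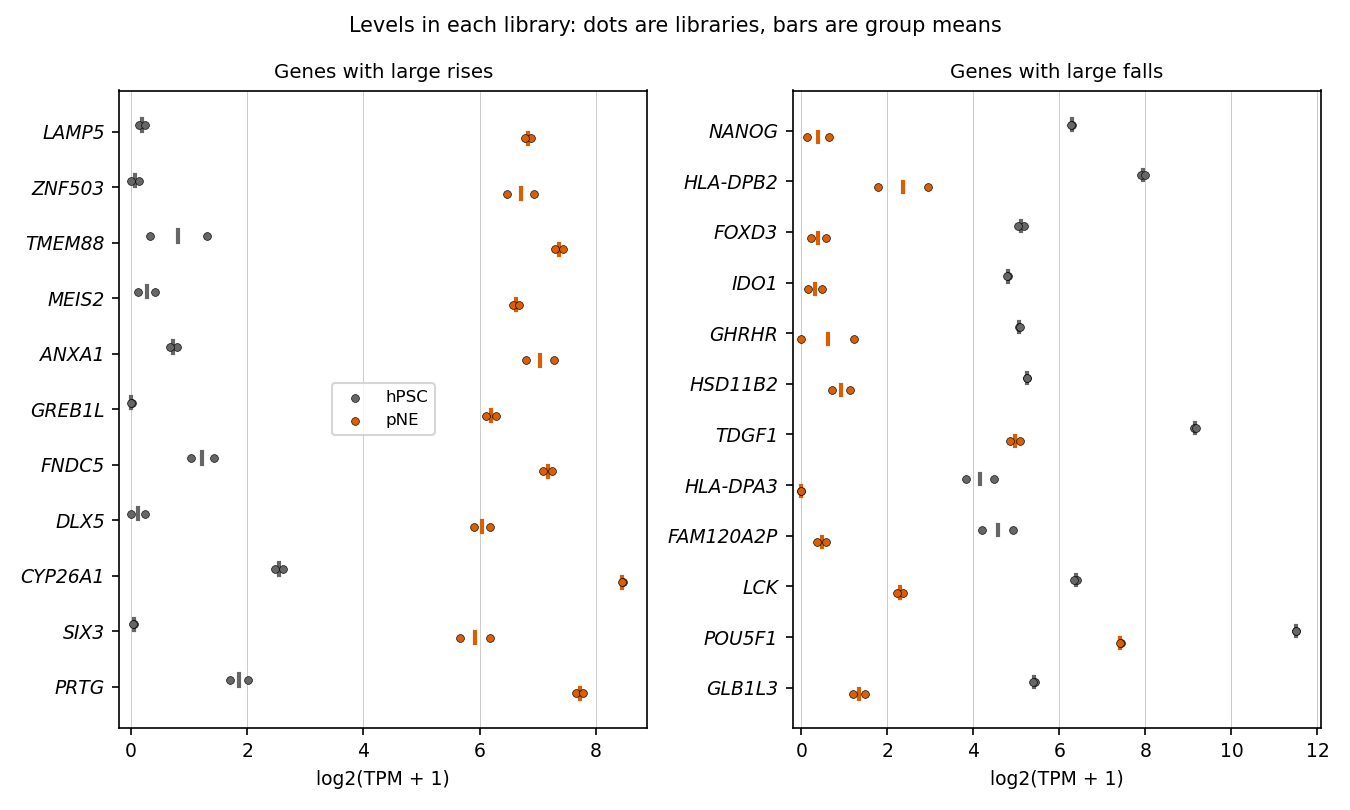
Levels as log2(TPM + 1) of genes with large rises (left) and large falls (right) in the 2 hPSC libraries (grey) and the 2 pNE libraries (orange), dots being libraries and bars group means. The genes were chosen so that the dots of the groups do not overlap, and most of the genes that rose start near 0 in hPSC.

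The core of the pluripotency network was lower in pNE but not evenly so. Of 18 listed genes, 17 passed the filter, of which none was called higher and 11 were called lower, with a median log2 fold change of -1.51 beside 0.04 over all genes tested. Of these, 4 passed only through hPSC, and of the other 13, 7 were called lower with a median of -1.24. NANOG, a homeobox gene that holds cells in pluripotency, fell from 77.4 and 76.2 TPM to 0.558 and 0.0868 TPM (-5.90 ± 0.20, adjusted p = 8.76e-11). POU5F1, which encodes OCT4, fell from 2899.8 and 2878 TPM to 171 and 169 TPM (-4.08 ± 0.22, adjusted p = 9.39e-09). Both have processed pseudogenes that could take or lend reads. FOXD3, a repressor used in pluripotent cells and again in neural crest, fell from 35.2 and 31.8 TPM to 0.173 and 0.475 TPM, and UTF1, a chromatin factor of pluripotent cells, from 26.5 and 22.1 TPM to 0.683 and 0.897 TPM. NANOG, FOXD3 and UTF1 were thus below 1 TPM in both pNE libraries.

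Other members fell by less. PRDM14, a repressor of differentiation genes, had a log2 fold change of -2.53, L1TD1, an RNA-binding protein, -2.39, VRTN -1.51, DPPA4 -1.28 and ZFP42 -1.24, and ZFP42 still stood at 77.8 and 68.9 TPM in pNE. SOX2, shared by pluripotent and neural cells, stood at 194 and 188 TPM in hPSC and 181 and 211 TPM in pNE, values that overlapped (0.03 ± 0.11, adjusted p = 0.853). LIN28A, which blocks maturation of let-7 miRNAs, stood at 737 and 726 TPM and at 1032 and 1074 TPM and did not reach the fold minimum (0.53 ± 0.08, adjusted p = 8.96e-05). DNMT3B, the de novo DNA methyltransferase typical of stem cells, fell from 1265 and 1292 TPM to 358 and 413 TPM (-1.73 ± 0.08, adjusted p = 2.38e-09), and it was the only one of 8 tested genes of DNA methylation and demethylation to be called in either direction.

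Genes of the NODAL pathway, whose receptors A8301 inhibits, were lower in part. Of 13 listed genes 11 passed the filter, with 7 called lower and 1 called higher. However, 4 of the 11 passed only through hPSC (NODAL, LEFTY1, LEFTY2 and GDF3), and of the other 7, 3 were called lower and 1 higher, with a median of -0.29. GDF3, a ligand, stood at 11.7 and 9.90 TPM in hPSC and was listed at 0 in both pNE libraries, LEFTY1, an inhibitor, went from 5.34 and 3.72 TPM to 0 and 0.171 TPM, and NODAL itself from 4.02 and 2.31 TPM to 0.750 and 0.521 TPM. TDGF1, the NODAL co-receptor also named Cripto, fell from 558 and 575 TPM to 32.9 and 27.8 TPM (-4.18 ± 0.16, adjusted p = 2.74e-10), with the reservation that it has close pseudogenes. FOXH1, the DNA-binding partner of the SMAD proteins in this pathway, fell from 92.0 and 85.1 TPM to 9.70 and 14.4 TPM. GDF1, another ligand, stood at 6.36 and 6.07 TPM in hPSC and 5.84 and 9.54 TPM in pNE (0.24), and the inhibitor CER1 was below the filter at 0.158 and 0.304 TPM and 0.516 and 0.481 TPM. The receptor genes ACVR1B and ACVR2B did not pass the test (0.05 and -0.29), and the member that rose was INHBE, an inhibin subunit (1.69), known also as a gene of the cellular stress response.

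BMP ligands rose while several BMP target genes fell. Of 13 genes, 11 passed the filter, 5 were called higher and 4 lower. BMP4 rose from 2.38 and 5.46 TPM to 73.9 and 72.2 TPM (3.98 ± 0.20, adjusted p = 4.57e-09), BMP7 from 3.37 and 2.40 TPM to 65.8 and 101 TPM (4.42 ± 0.17, adjusted p = 3.11e-10), and BMP2 had a fold change of 1.86. All pNE values of the 3 ligands lay above those of hPSC. Of the targets, ID1, an inhibitor of basic helix-loop-helix factors, fell from 153 and 142 TPM to 15.0 and 21.3 TPM (-2.97 ± 0.18, adjusted p = 2.63e-08), and ID2 (-1.61), the feedback inhibitor SMAD7 (-2.51) and the pseudoreceptor BAMBI (-1.54) fell too. ID4 rose (2.80), and ID3 stood at 369 and 366 TPM in hPSC and 469.7 and 488 TPM in pNE, short of the fold minimum (0.38). MSX2, which passed only through pNE, was called higher (1.22), a call that ended without pNE replicate 2 (fold change 1.00).

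Early neural genes rose to different extents. Of 18 genes 15 passed the filter, 10 were called higher and none lower. Of the 15, 5 passed only through pNE (SOX1, PAX6, SOX21, DACH1 and LIX1), and of the other 10, 5 were called higher with a median of 0.73. SOX21, a SOXB2 factor of neural progenitors, rose from 0.171 and 0.190 TPM to 56.8 and 72.6 TPM (5.79 ± 0.20, adjusted p = 8.93e-11). SOX3, a SOXB1 factor, rose from 23.4 and 19.4 TPM to 91.9 and 121 TPM (2.25 ± 0.19, adjusted p = 7.87e-07), and NES, which encodes the intermediate filament nestin, from 80.8 and 82.3 TPM to 274 and 346 TPM (1.90 ± 0.09, adjusted p = 2.16e-09). Low but called were PAX6 (1.44), DACH1 (2.53, reaching 5.18 and 5.30 TPM) and LIX1 (1.93, reaching 2.98 and 3.03 TPM). SOX1 (1.08) and FABP7 (1.03) were called as well, and lost the call when the libraries were quantile-normalized (0.70 and 0.95). FABP7 lost it also under median-ratio scaling (0.97), without pNE replicate 1 (0.90) and without hPSC replicate 1 (0.86). ZIC2, POU3F1 and SOX11, already expressed in hPSC, were not called (0.25, 0.42 and 0.36). Against aNE, 1 of the 15 was called higher, FABP7 (1.21), and 5 were called lower, where 2.71% and 1.35% of all genes tested were. The median against aNE was -0.76. PAX6 stood at 28.9 and 29.3 TPM in aNE (pNE minus aNE -3.39).

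Retinoid genes were mostly higher in pNE than in hPSC, and several were higher than in aNE as well. Of 15 genes of retinoid metabolism and binding, 12 passed the filter, 7 were called higher and 1 lower, and the median was 1.41 beside 0.04 over all genes. CYP26C1 passed only through pNE and ALDH1A1 only through hPSC, and of the other 10, 6 were called higher and 1 lower. Against aNE, which had passed through the same day 1 medium, 5 of the 12 were called higher and none lower, where 2.71% and 1.35% of all genes tested were, and all 12 values were positive. The filter used the pNE and hPSC libraries only, so members present mainly in aNE could not enter. Of those left out, ALDH1A2 stood at 1.47 and 1.19 TPM in aNE and 0.124 and 0.607 TPM in pNE. RBP4 was higher in pNE than in aNE, and CYP26B1 had overlapping values. Of all genes called higher than in hPSC, 217 were also higher than in aNE, 49 were lower than in aNE and 946 were not called between pNE and aNE.

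Genes of retinol uptake and storage are described first. STRA6, the cell-surface receptor that takes up retinol (chromosome 15, 74179466 to 74212259, GRCh38.p14), rose from 9.77 and 10.1 TPM in hPSC to 88.9 and 119 TPM in pNE (3.25 ± 0.12, adjusted p = 1.7e-10). In aNE it stood at 7.75 and 7.0 TPM, and pNE exceeded aNE by 3.64 ± 0.12 (adjusted p = 2.18e-10). LRAT, which esterifies retinol for storage, stood at 9.03 and 11.1 TPM in hPSC, 1.35 and 2.26 TPM in aNE and 34.5 and 31.4 TPM in pNE (1.62 ± 0.18 against hPSC, adjusted p = 1.13e-05). For both genes the aNE libraries were the lowest of the 3 groups and the pNE libraries the highest.

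DHRS3, which reduces retinaldehyde back to retinol, rose from 6.04 and 7.19 TPM to 56.4 and 62.9 TPM (3.0 ± 0.13, adjusted p = 7.12e-10). RDH10, the dehydrogenase that makes retinaldehyde, stood at 6.99 and 6.29 TPM in hPSC and 13.1 and 12.5 TPM in pNE (0.86 ± 0.23), under the fold minimum. Of the retinaldehyde dehydrogenases, which make retinoic acid, ALDH1A2 did not reach the filter, ALDH1A3 did not pass the test (0.50 ± 0.28, adjusted p = 0.168) and ALDH1A1 went from 1.04 and 1.11 TPM in hPSC to 0.0813 and 0.284 TPM in pNE (-0.82 ± 0.21, adjusted p = 0.00661), under the fold minimum on this scale.

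CYP26A1 (chromosome 10, 93073475 to 93077885), next to CYP26C1 in the genome, encodes the enzyme that clears retinoic acid. It stood at 4.56 and 5.16 TPM in hPSC and at 352 and 348 TPM in pNE (5.91 ± 0.18, adjusted p = 2.33e-11). It was also high in aNE, at 219 and 223 TPM, where the medium held no TTNPB. The difference between pNE and aNE was 0.66 ± 0.18 (adjusted p = 0.0205) and under the fold minimum. CYP26C1 reached 1.71 and 1.45 TPM in pNE (1.19), a call that ended under quantile normalization (0.99), and CYP26B1 stayed below the filter.

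The carriers of retinoic acid inside the cell moved in opposite directions. CRABP2, which hands retinoic acid to its receptors, rose from 133 and 112 TPM in hPSC to 2091 and 1982 TPM in pNE (4.05 ± 0.09, adjusted p = 2.67e-12), where it ranked 81 by mean TPM among all genes in the table. Its aNE values of 555 and 540.4 TPM lay between (pNE minus aNE 1.89 ± 0.09, adjusted p = 1.22e-08). CRABP1, its paralog, fell from 592 and 574 TPM to 216 and 236 TPM (-1.37 ± 0.06, adjusted p = 1.7e-09), and stood at 159 and 177 TPM in aNE. CRABP2 was thus below CRABP1 in both hPSC libraries and above it in both pNE libraries.

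Among the receptors, RARB, itself a classic retinoic acid target, was nearly silent in hPSC at 0.105 and 0.134 TPM and stood at 21.4 and 20.0 TPM in pNE (4.28 ± 0.15, adjusted p = 1.5e-10). It was at 1.28 and 1.08 TPM in aNE, 3.31 ± 0.15 below pNE. RARA stood at 19.4 and 18.9 TPM in hPSC and 34.5 and 49.1 TPM in pNE (1.07 ± 0.13, adjusted p = 2.52e-05), and fell short of the fold minimum without pNE replicate 2 (0.82) and under quantile normalization (0.97). RARG, at 52.4 and 55.1 TPM in hPSC, was at 33.0 and 40.7 TPM in pNE (-0.54), and RXRA (0.24) and RXRB (0.45) were not called. NRIP1, a corepressor recruited by ligand-bound receptors, rose from 5.19 and 5.63 TPM to 46.8 and 51.0 TPM (2.96 ± 0.11, adjusted p = 3.2e-10). The orphan receptor NR2F2, or COUP-TFII, was listed at 0 in hPSC and reached 1.35 and 2.58 TPM in pNE, but 32.3 and 32.6 TPM in aNE (pNE minus aNE -3.53 ± 0.23, adjusted p = 1.86e-07). In all, 4 of the 9 tested members of this list of 11 were called higher than in hPSC and none lower, RARB and NR2F2 having passed only through pNE.

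**Figure D3:**
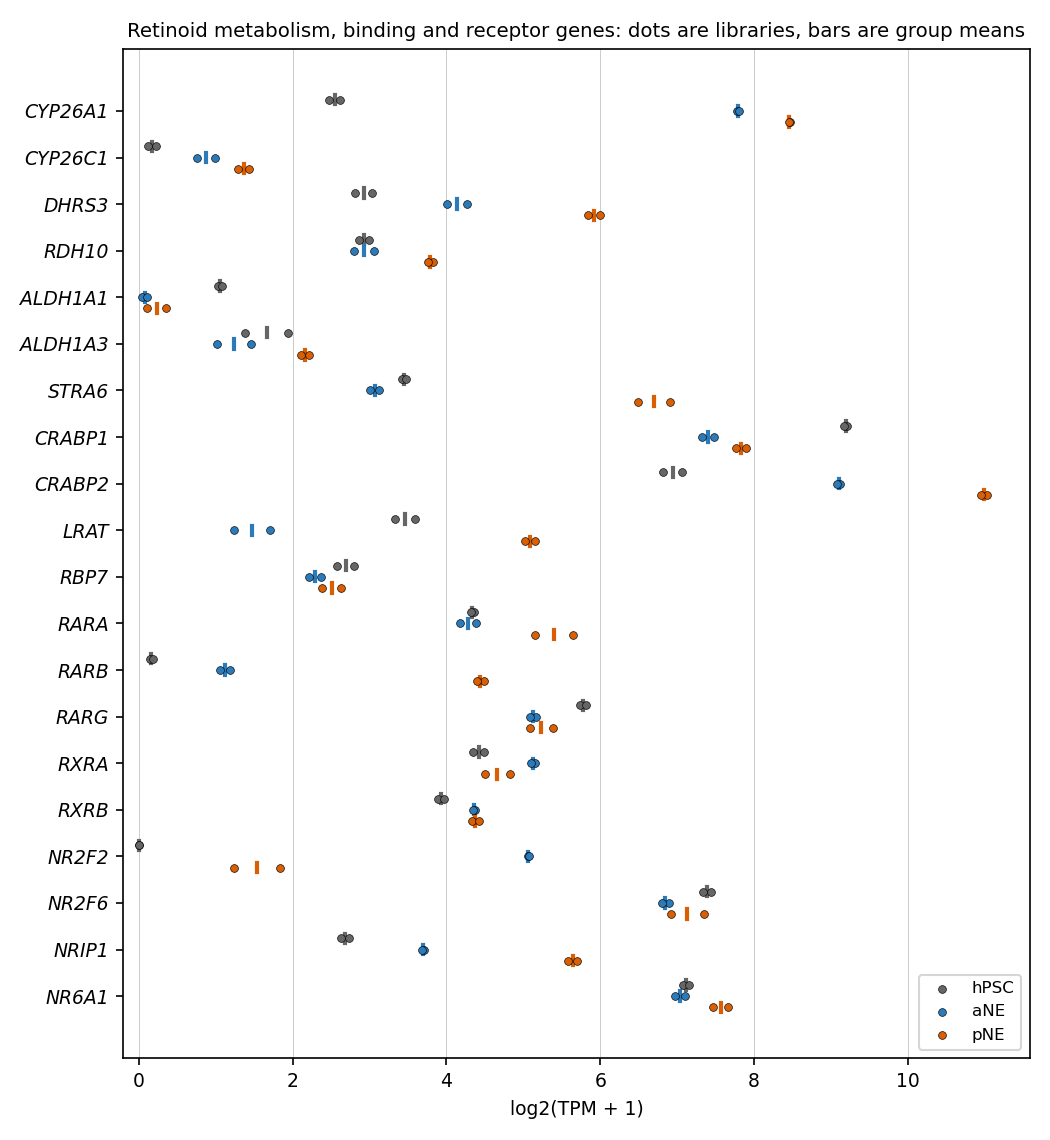
Levels as log2(TPM + 1) of tested genes of retinoid metabolism, binding and reception in the 2 libraries each of hPSC (grey), aNE (blue) and pNE (orange), dots being libraries and bars group means. CYP26A1 is high in aNE and pNE alike, whereas STRA6, LRAT and RARB are high in pNE alone of the 3 groups and CRABP1 is highest in hPSC.

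HOX expression was restricted to the lowest group numbers. Of 12 genes of groups 1 to 4, 5 passed the filter and did so through the pNE libraries, so that their being called higher follows from the filter. HOXB1 (chromosome 17, 48528526 to 48531011), a hindbrain gene of rhombomere 4, stood at 0.199 and 0.0636 TPM in hPSC and 15.2 and 19.5 TPM in pNE (4.01 ± 0.14). HOXB2, its neighbour at 48542655 to 48545109, was listed at 0 in both hPSC libraries and stood at 10.5 and 11.7 TPM in pNE (3.59 ± 0.16). Both were listed at 0 in both aNE libraries. HOXB3 reached 0.981 and 0.709 TPM in pNE, below the filter, and HOXB4 was listed at 0. None of the 27 genes of groups 5 to 13 passed the filter, and the highest value of any of them in the 4 libraries was 0.301 TPM.

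The cofactors with which HOX proteins bind DNA rose in part. Of 9 genes of the MEIS, PBX and PKNOX families 4 were called higher and none lower, MEIS1 and MEIS2 having passed the filter only through pNE. MEIS2 rose from 0.335 and 0.0917 TPM to 94.7 and 101 TPM (6.36 ± 0.12, adjusted p = 4.14e-13), with 26.7 and 22.8 TPM in aNE. MEIS3 rose from 12.6 and 13 TPM to 48.3 and 56.4 TPM (1.95 ± 0.10), MEIS1 reached 2.78 and 3.26 TPM (1.81) and PKNOX2 7.16 and 11.2 TPM (1.71). PBX3 was at 19.3 and 19.5 TPM against 31.1 and 30.8 TPM (-0.65).

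Genes of hindbrain patterning were led by GBX2. Of 17 genes 11 passed the filter, and 9 were called higher and none lower. However, 5 of the 11 passed only through pNE, and of the other 6, 4 were called higher with a median of 2.12. GBX2, the homeobox gene that sets the anterior limit of the hindbrain, stood at 2.75 and 2.81 TPM in hPSC, 1.04 and 1.05 TPM in aNE and 172 and 216 TPM in pNE (5.68 ± 0.20 against hPSC, adjusted p = 9.45e-11). The excess over aNE was 6.56 ± 0.20 (adjusted p = 1.14e-10). ZNF703, the partner of ZNF503 in the NET family, rose from 0.745 and 0.661 TPM to 26.8 and 43.7 TPM (4.37 ± 0.23). GBX2, ZNF503 and ZNF703 were among the 4 members called higher than in aNE, and 4 others were called lower. Of all genes tested, 2.71% and 1.35% were.

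EGR2, a marker of rhombomeres 3 and 5, was low, at 0.244 and 0.534 TPM in pNE. FGF3 was listed at 0 in both groups. The ephrin receptor EPHA4 and the Iroquois genes IRX1, IRX3 and IRX5, also on the list, rose from hPSC (2.06, 1.81, 2.17 and 1.08) but were lower in pNE than in aNE (-1.98, -1.32, -1.82 and -1.85). IRX5 fell short of the fold minimum under quantile normalization (0.84) and without hPSC replicate 1 (1.00). IRX2 stood at 42.3 and 49.5 TPM in pNE and 45.1 and 40.0 TPM in aNE, values that overlapped.

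Several forebrain genes were present in pNE, most at lower levels than in aNE. Of 16 genes 9 passed the filter and 8 of them were called higher than in hPSC, but 6 had passed only through pNE, so that their direction follows from the filter. Against aNE none of the 9 was called higher and 6 were called lower, where 2.71% and 1.35% of all genes tested were. The median was -1.62. VAX1 was the one above its aNE level, at 1.27 and 2.21 TPM against 0.560 and 0.549 TPM (0.80 ± 0.20, adjusted p = 0.0171), under the fold minimum. SIX3, a homeobox gene of the anterior neural plate, rose from 0.0310 and 0.0295 TPM in hPSC to 49.7 and 71.7 TPM in pNE (5.88 ± 0.15, adjusted p = 7.22e-12) but stood at 187 and 192 TPM in aNE (pNE minus aNE -1.65 ± 0.15). LHX5, a LIM-homeobox gene, rose from 0.0613 and 0.146 TPM to 38.7 and 51.1 TPM (5.37 ± 0.22), against 258 and 258 TPM in aNE. FEZF1, a zinc-finger gene of the forebrain, reached 5.66 and 9.51 TPM in pNE against 323 and 325 TPM in aNE (-5.28 ± 0.24, adjusted p = 5.67e-09). LHX2, by contrast, was at 12.1 and 15.0 TPM in pNE and 14.3 and 14.3 TPM in aNE, with overlapping values.

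OTX2, which marks forebrain and midbrain and is also used in stem cells, had overlapping values in hPSC and pNE. It stood at 26.1 and 28.5 TPM in hPSC and at 28.3 and 26.6 TPM in pNE (0.01 ± 0.14, adjusted p = 0.968), while aNE held 203 and 214 TPM (pNE minus aNE -2.88 ± 0.14, adjusted p = 1.27e-08). Of 10 midbrain and isthmus genes, 1 passed the filter, LMX1B, and it was not called (-0.56). Of 10 genes of caudal progenitors 5 passed the filter, 2 were called higher, CYP26A1 and the ligand WNT8A (1.06, and 0.68 under quantile normalization, short of the fold minimum), and 3 lower. WNT8A passed only through pNE, and CDX4 and TBX6 only through hPSC. CDX1, CDX2 and TBXT were below 0.2 TPM in both pNE libraries, CDX4 fell from 2.43 and 2.75 TPM to 0.145 and 0.113 TPM, and NKX1-2, from 28.8 and 30.4 TPM, to 6.94 and 6.19 TPM (-2.02 ± 0.20).

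ERK feedback genes differed more between pNE and aNE than between pNE and hPSC in the number called. Of 19 ERK feedback genes and ETV factors, all tested, 4 were called higher than in hPSC and 2 lower (SHISA3 having passed only through hPSC), with a median of 0.51. By adjusted p alone 13 were higher and 4 lower, where 24% and 20.6% of all genes tested were. Against aNE 13 were called higher and 2 lower, where 2.71% and 1.35% of all genes tested were, and the median was 1.54. DUSP4, a phosphatase that inactivates ERK in the nucleus, rose from 5.29 and 5.85 TPM in hPSC to 55.5 and 61.2 TPM in pNE (3.18 ± 0.08, adjusted p = 7.9e-12), with 8.65 and 8.59 TPM in aNE. SPRED2, an inhibitor of RAF activation, rose from 14.8 and 18.4 TPM to 59.7 and 75.0 TPM (1.95 ± 0.15), SPRY1 had a fold change of 1.19 and FOSL1 of 1.73.

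The genes most used as readouts of ERK followed another order. DUSP6 stood at 149 and 156 TPM in hPSC, 29.3 and 33.6 TPM in aNE and 274 and 238 TPM in pNE (0.74 ± 0.08 against hPSC, 2.98 ± 0.08 against aNE). SPRY4 stood at 53.1 and 61.4, 6.4 and 5.03, and 77.5 and 86.0 TPM in the same groups (0.51 and 3.63). ETV4, an ETS factor, was at 157 and 164 TPM in hPSC, 10.7 and 12.2 TPM in aNE and 93.6 and 116 TPM in pNE, and so remained under its hPSC level (-0.61 ± 0.10, adjusted p = 0.000361). In each of the 3 genes the aNE libraries were the lowest. The immediate early genes did not share this order, with EGR1 at 2.81 and 3.31 TPM in pNE against 15.7 and 15.3 TPM in aNE (-2.03) and FOS lower than in hPSC (-1.58).

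Of the FGF genes themselves, 11 of 16 passed the filter, with 2 called higher and 3 lower. Against aNE 3 of the 11 were called higher (FGF13, FGF18 and FGF19) and none lower, where 2.71% and 1.35% of all genes tested were. Of the 11 values 4 were positive, and the median was -0.19. The receptor FGFR3 rose from 8.98 and 13.5 TPM to 128 and 166 TPM (3.60 ± 0.18, adjusted p = 3.26e-09) and FGFR1 from 248 and 261 TPM to 589.7 and 692 TPM (1.32), while FGFR4 fell from 82.3 and 79.9 TPM to 29.3 and 32.1 TPM (-1.38). The ligand FGF19 fell from 15.9 and 17.3 TPM to 2.11 and 2.80 TPM (-2.35). FGF8 did not pass the filter, and FGF2, added to the medium, was itself at 25.6 and 27.0 TPM in hPSC and 29.5 and 28.5 TPM in pNE (0.14).

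**Figure D4:**
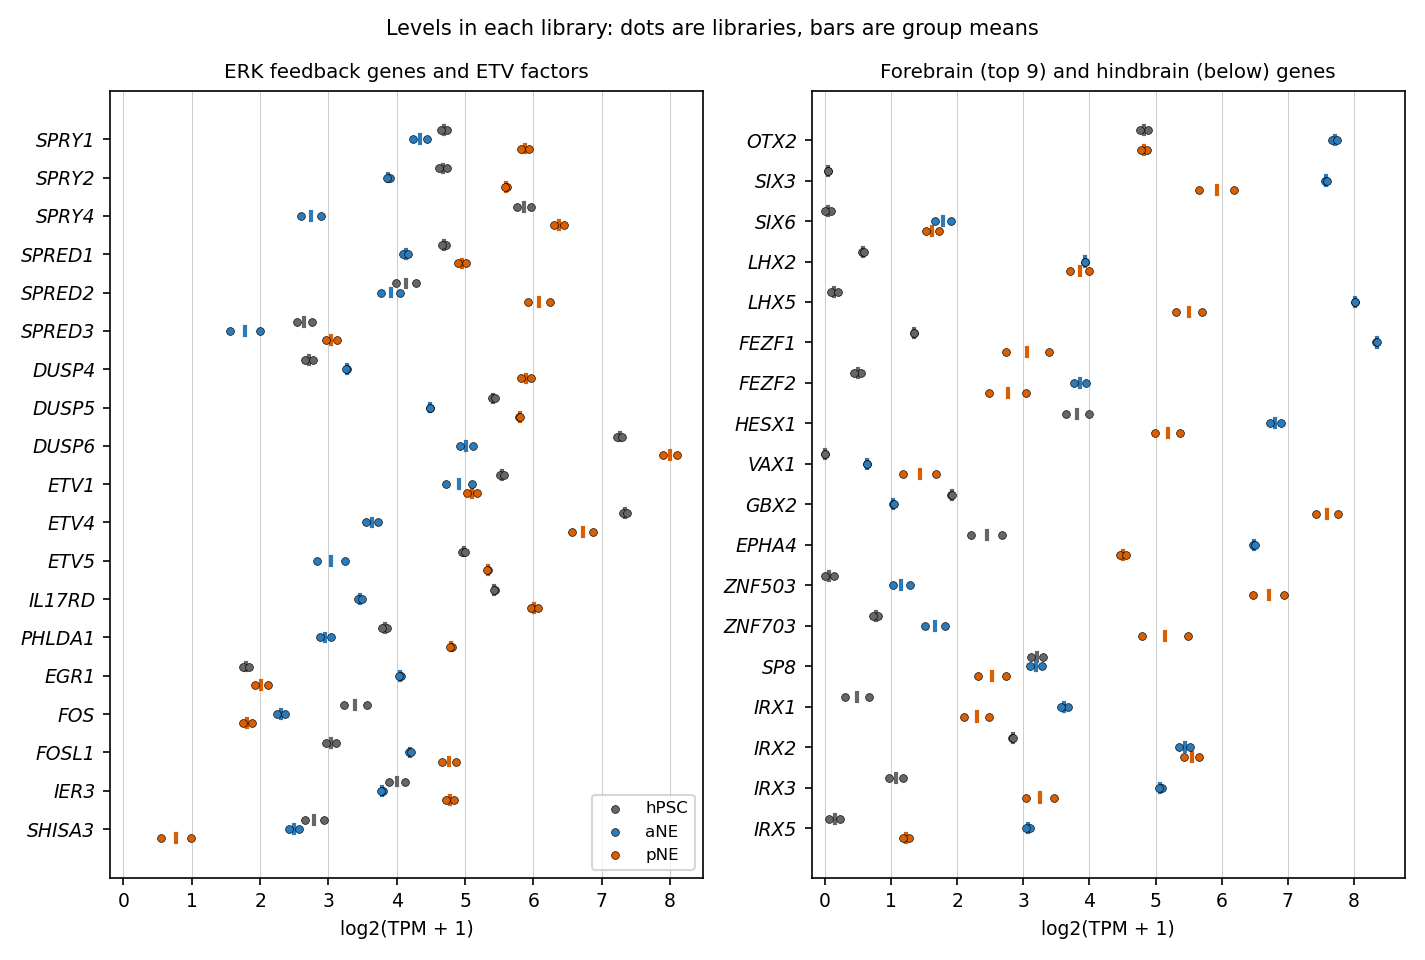
Levels as log2(TPM + 1) in the 2 libraries each of hPSC (grey), aNE (blue) and pNE (orange) for 19 ERK feedback genes and ETV factors (left) and for tested forebrain and hindbrain genes (right). Feedback genes such as DUSP6 and SPRY4 are lowest in aNE, GBX2, ZNF503 and ZNF703 are highest in pNE, and OTX2, FEZF1 and LHX5 are highest in aNE.

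WNT targets gave no common direction, with 3 called higher and 2 lower among the 11 of 16 that passed the filter. AXIN2, the most general feedback gene of the pathway, fell from 23.4 and 22.5 TPM to 9.45 and 10.6 TPM (-1.12 ± 0.10, adjusted p = 8.32e-07), and the secreted inhibitor SFRP2 from 501 and 503 TPM to 178 and 216 TPM (-1.35). SP5, which passed only through pNE, was called higher (2.20 ± 0.40, adjusted p = 0.000565) but differed within pNE, at 2.47 and 8.76 TPM. TCF7 (1.11) lost its call without pNE replicate 2 (0.95), and LEF1 (1.02) under median-ratio scaling (0.98), without pNE replicate 1 (0.84) and without hPSC replicate 2 (0.78).

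In the Notch pathway 14 of 15 genes passed the filter, 2 were called higher and 5 lower, with a median of -0.37. The target HES1 rose from 12.5 and 12.1 TPM to 53.4 and 57.0 TPM (2.08 ± 0.10, adjusted p = 3.26e-09) and the receptor NOTCH2 had a fold change of 1.36. DLL3, an inhibitory ligand, fell from 10.8 and 10.4 TPM to 1.38 and 1.23 TPM (-2.33), HEY2 fell by 1.62 and NRARP by 1.33 on the log2 scale. JAG2 was also called lower (-1.16), a call that ended without hPSC replicate 2 (-0.95).

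Of 14 tested genes of cadherins and epithelial state, 4 were called higher and 2 lower, CDH6 having passed only through pNE. CDH2, the neural cadherin, rose from 19.6 and 18 TPM to 95.3 and 96.6 TPM (2.29 ± 0.10, adjusted p = 7.05e-10). CDH6, a cadherin of early neural tissue, rose from 0.621 and 0.621 TPM to 53.2 and 56.0 TPM (5.10 ± 0.08, adjusted p = 6.58e-14). CDH1, the epithelial cadherin, was at 133 and 138 TPM in hPSC and still at 88.6 and 86.3 TPM in pNE (-0.63 ± 0.23, adjusted p = 0.0393), below the fold minimum, whereas CDH3 fell (-1.32). VIM, which encodes vimentin, rose from 51.6 and 50.7 TPM to 394 and 487 TPM (3.07 ± 0.09, adjusted p = 3.04e-11), and ESRP1, a splicing factor of epithelia, fell from 89.3 and 88.9 TPM to 37.5 and 32.7 TPM (-1.32).

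None of 19 genes of sterol synthesis and uptake reached the fold minimum, but all 19 values were positive and the median was 0.65. By adjusted p alone 17 were higher, where 24% of all genes tested were. INSIG1, the sterol sensor that is itself a target of the pathway, stood at 36.9 and 41.0 TPM in hPSC and 72.1 and 76.8 TPM in pNE (0.92 ± 0.09, adjusted p = 2.37e-06). Of 10 genes of fatty acid synthesis 3 were called higher, among them ME1, which supplies NADPH, at 2.27 and 2.39 TPM against 15.5 and 13.5 TPM (2.22), and SREBF1, which encodes the regulator of the pathway (1.43). The last of them, FADS1 (1.02), fell short of the fold minimum under median-ratio scaling (0.96) and without hPSC replicate 1 (0.80). Of 16 glycolytic genes 2 were called lower, where 6.58% of all genes tested were. By adjusted p alone 11 were lower, where 20.6% of all genes tested were, and the median was -0.39. LDHA, which makes lactate, fell from 429 and 352 TPM to 159.7 and 156 TPM (-1.30 ± 0.12, adjusted p = 1.62e-06), and PDK1, a pyruvate dehydrogenase kinase, had a fold change of -1.45.

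All 13 protein-coding genes of the mitochondrial genome were called higher, with fold changes from 1.27 to 2.17. MT-ND2 stood at 233 and 285 TPM in hPSC and 984 and 1373 TPM in pNE (2.17 ± 0.17), and MT-CO1 at 1319 and 1772 TPM and 4166 and 5554 TPM (1.65 ± 0.17). They were as high in aNE, with none of the 13 called between pNE and aNE. MT-ATP8 (1.73, adjusted p = 0.0058) lost its call without pNE replicate 2 (adjusted p = 0.0857) and without hPSC replicate 2 (adjusted p = 0.0562). Copies of mitochondrial sequence in the nuclear genome could share these reads, and the part of RNA quality in this rise was not tested.

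Of 20 cell cycle genes 1 was called higher and 1 lower, where 8.2% and 6.58% of all genes tested were. By adjusted p alone 6 were higher and 6 lower, where 24% and 20.6% of all genes tested were, and the median was -0.07. CDKN1A, which encodes the cell cycle inhibitor p21, rose from 11 and 10.3 TPM to 88.7 and 94.2 TPM (2.99 ± 0.07, adjusted p = 2.67e-12). CCNE1, the cyclin of entry into S phase, fell from 56.5 and 56.2 TPM to 19.3 and 18.7 TPM (-1.52 ± 0.11, adjusted p = 9.75e-08). MKI67, a proliferation marker, was at 33.8 and 35.6 TPM in hPSC and 35.9 and 39.3 TPM in pNE (0.11 ± 0.13). On a list of 15 stress and immediate early genes 14 passed the filter, 4 were called higher and 2 lower. DDIT3, a transcription factor of the integrated stress response, rose from 7.26 and 7.30 TPM to 49.0 and 45.0 TPM (2.53), and GADD45A, induced by DNA damage and other stress, from 17.2 and 15.0 TPM to 78.1 and 88.1 TPM (2.30). The pNE cells had been detached and replated a day before collection, and the part of this step in these values was not tested.

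Markers of other cell types were low in part. Of 15 mesendoderm and mesoderm markers 4 passed the filter, and their summed level was 59.6 and 58.0 TPM in hPSC and 29.9 and 27.1 TPM in pNE. TBXT was at 0.0253 TPM and 0, SOX17 was listed at 0, and EOMES was at 0.0995 and 0.130 TPM in pNE. GSC, a homeobox gene of the organizer, was called higher at 4.84 and 4.33 TPM (2.48), and FOXA2 at 1.63 and 2.19 TPM (1.28), both having passed only through pNE. Of 12 neuronal markers 4 passed, 2 of them only through hPSC, and MAP2 was the one called higher, at 44.7 and 36.9 TPM against 6.03 and 5.44 TPM (2.63). The other 3 had negative values, 2 were lower by adjusted p alone, and the median was -0.57. The summed level of the 12 markers was 242 and 231 TPM in hPSC and 218 and 245 TPM in pNE, values that overlapped. NEUROG1 and NEUROG2 were listed at 0 in both pNE libraries.

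Neural crest and surface ectoderm markers were mixed. Of 10 crest markers 6 passed, 2 were called higher and 3 lower, and their sum was 77.0 and 69.3 TPM in hPSC and 141 and 179 TPM in pNE. Most of the latter was NGFR, a neurotrophin receptor, at 113 and 144 TPM (3.49 ± 0.11, adjusted p = 3.56e-11). Of the crest-defining factors, SOX10 was at 0.708 and 1.14 TPM (-1.04, and -0.88 without pNE replicate 1), TFAP2A at 0.0402 and 0.0945 TPM and PAX3 at 0.421 and 0.724 TPM in pNE. Of 14 surface ectoderm and amnion markers 8 passed and 5 were called higher, DLX5, DLX3, GRHL3, GATA3 and TFAP2C, DLX5, DLX3 and GATA3 of these having passed only through pNE, while the sum fell from 491 and 563 TPM to 158 and 189 TPM and GABRP, a GABA receptor subunit that held most of it in hPSC, fell from 453 and 533 TPM to 51.8 and 60.9 TPM. GRHL3 reached 18.3 and 19.8 TPM (3.32 ± 0.14). TFAP2C (1.06) lost its call in a fit of the compared libraries alone (adjusted p = 0.0821), without pNE replicate 2 (0.92) and without hPSC replicate 2 (0.49). TP63, which defines epidermal ectoderm, was at 0 and 0.0668 TPM. The part of such cells in the other results was not tested.

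**Figure D5:**
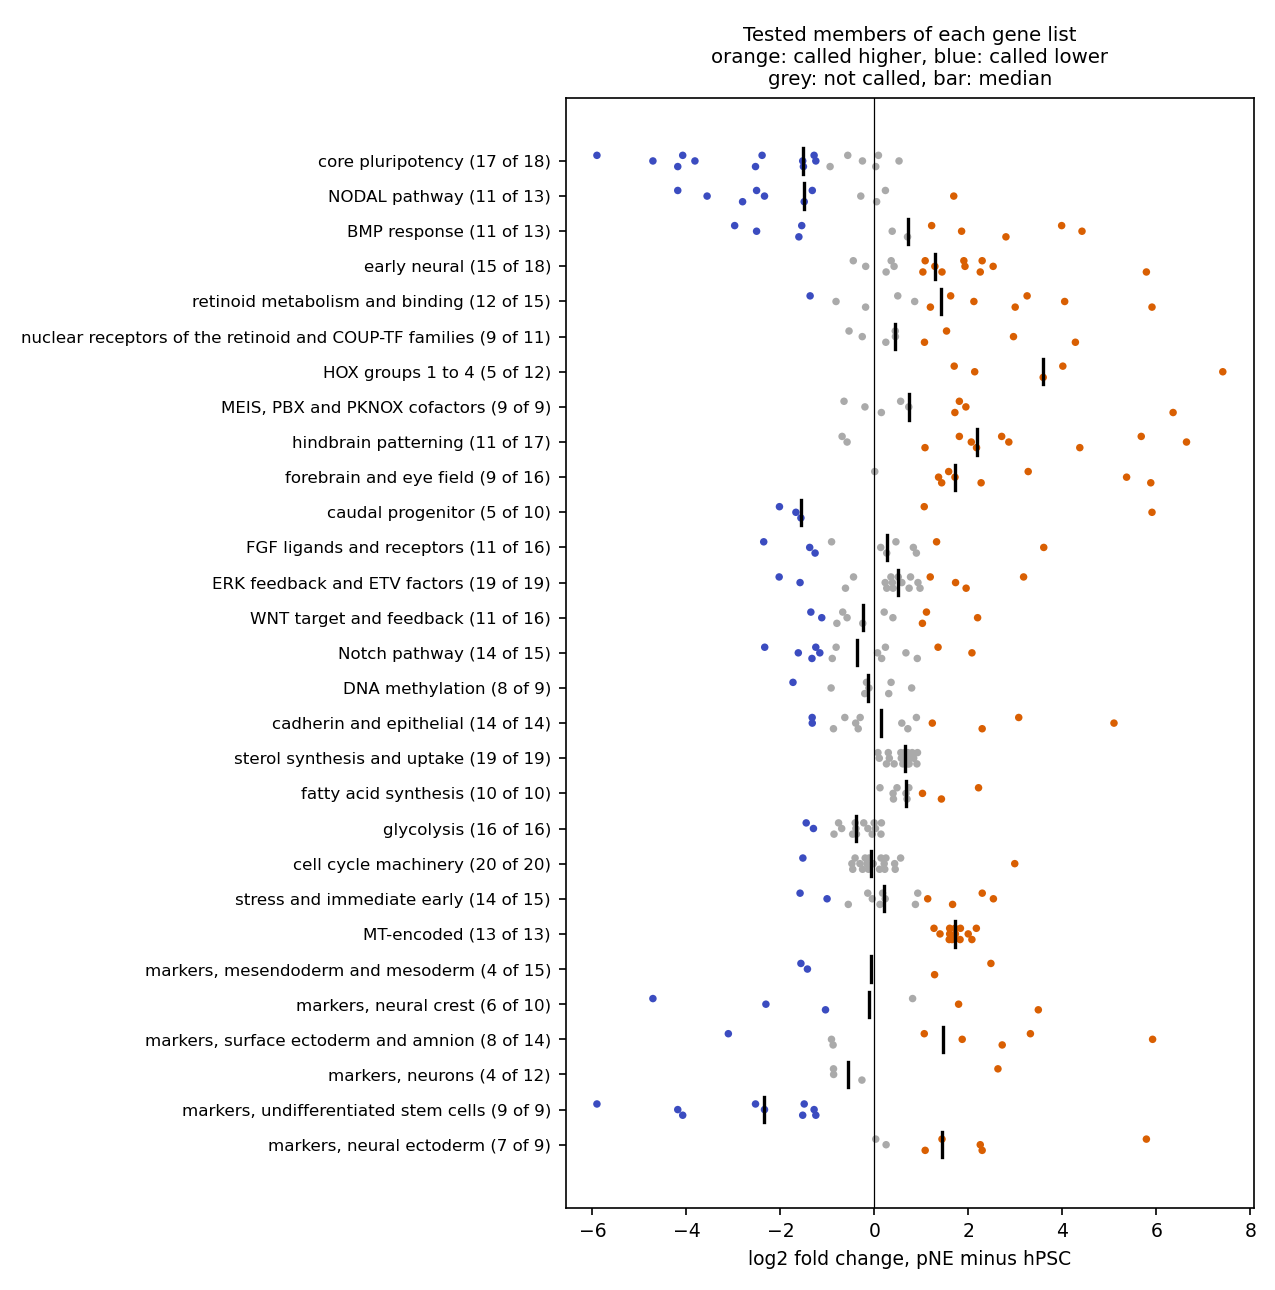
Log2 fold change between pNE and hPSC for the tested members of 29 gene lists, each dot 1 gene, with the number tested of the number listed in brackets, called genes in orange (higher) or blue (lower), and a bar at the median. Members that passed the filter through 1 group alone are included in the medians drawn. Most of the pluripotency genes lie to the left, all mitochondrial genes lie to the right, and the median of the cell cycle genes lies near 0.

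Genes that rose from hPSC with a large excess over aNE included, beside GBX2, ZNF503 and LAMP5, also ATOH8 and CPLX1. ATOH8, a basic helix-loop-helix factor, was at 0.613 and 0.276 TPM in hPSC, 0.409 and 0.656 TPM in aNE and 51.9 and 59.1 TPM in pNE (5.21 ± 0.14 over aNE, adjusted p = 5.76e-11). CPLX1, a complexin known from synaptic vesicle release, was at 1.18 and 1.22 TPM, 0.136 and 0.485 TPM, and 29 and 32.7 TPM in the same groups (4.62 ± 0.24 over aNE). Both were below 2 TPM in hPSC and aNE and high in pNE alone of the 3 groups. ATOH8 passed the filter only through pNE.

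Of the genes lower than in hPSC and lower again than in aNE, ID1 and ID2 have been described, with excesses of aNE of 2.83 and 2.46 on the log2 scale. ID1 was at 131 and 135 TPM in aNE and ID2 at 54.4 and 52.7 TPM. HES3, a transcriptional repressor, stood at 66.9 and 65.5 TPM in hPSC, 196 and 176 TPM in aNE and 7.30 and 8.23 TPM in pNE (pNE minus aNE -4.41 ± 0.29, adjusted p = 1.82e-07). Of all genes tested, 7.6% were called higher and 7.15% lower in aNE than in hPSC, and HES3 was among those called higher there. The other genes named by the rule were COCH, SALL3 and ARHGAP33 (-1.82, -1.67 and -1.64). SALL3, at 12.2 and 20.1 TPM in pNE, was no longer called against hPSC without pNE replicate 1 (-0.86).

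The day 4 libraries show how long some of these levels lasted, as means of 2 libraries with no test made here. These cells were plated at 150000 per cm2 and carried from pNE into forebrain, midbrain or hindbrain medium. CYP26A1 was at 349.99 ± 2.77 TPM (SD, n = 2) in pNE at day 2 and at 29.3 ± 0.82, 31.2 ± 5.83 and 35.3 ± 5.99 TPM in the 3 media. GBX2 was at 194 ± 31.1 TPM in pNE and 36.1 ± 3.19, 5.83 ± 0.86 and 29 ± 5.85 TPM later, and LAMP5 at 113 ± 5.43 TPM and 33.3 ± 6.68, 5.62 ± 0.85 and 10.4 ± 0.017 TPM. All 3 were lower at day 4 in each medium. HOXB1 went the other way, from 17.3 ± 3.05 TPM to 136 ± 15.1, 343 ± 4.56 and 329.8 ± 24.8 TPM, and HOXB2 from 11.1 ± 0.88 TPM to 142 ± 5.94, 178 ± 7.69 and 212 ± 56.9 TPM. RARB depended on the medium, at 20.7 ± 0.95 TPM in pNE and 81.5 ± 5.25, 4.82 ± 0.48 and 61.2 ± 6.09 TPM at day 4. OTX2 was at 27.4 ± 1.22 TPM in pNE and under 6 TPM in all 3 media.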

How the data were processed

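RNA was sequenced from poly-T selected libraries primed with random hexamers, per the labels' protocols. The authors deposited 1 table of TPM values with 37550 rows and 18 libraries in 9 groups of 2, of which 7898 rows carry a transcript identifier and no symbol. The submitters' processing notes name bcl2fastq, FastQC, Trim Galore, kallisto and deepTools and the build hg38, without versions or roles. TPM sums to 1000000 in every library and keeps no depth, so no counting intervals are given, and low values have unknown precision. Strand use is not given in the sources used here, so overlapping and antisense genes are uncertain.

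From these values log2(TPM + 1) was taken, and 14773 genes were kept that reached 1 TPM in 2 or more of the 4 hPSC and pNE libraries. A limma model (limma 3.58.1, R 4.3.3) with a mean for each of the 9 groups used every one of the 18 libraries (9 residual degrees of freedom), with variances moderated along a trend on level, and two-sided p-values were adjusted by Benjamini-Hochberg over all genes tested. Contrasts were pNE minus hPSC and, over the same genes, pNE minus aNE. Both day 2 groups share the hPSC libraries, so the pNE minus aNE contrast is the test of their difference, and genes found in aNE alone were not tested. Fold changes carry the SE from limma. On simulated data for pNE minus hPSC with 14773 genes, 50 of 50 genes changed by 1.5 on the log2 scale were recovered in each direction, with 4 false calls. The changed genes were drawn only from those with a mean log2(TPM + 1) of at least 4 over pNE and hPSC. Recovery of genes at lower levels was therefore not tested. Each simulated gene had the same spread in every group and varied independently of the other genes. How the calls behave where spread differs between groups was thus not tested either.

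The 31 gene lists, their 403 members and the comparison itself were chosen with earlier results of these data known. Named genes were the list members, the 12 largest rises and falls called without overlap of groups and with at least 5 TPM in the higher group, and the 6 genes in each direction with the largest difference from aNE among those called in the same direction in both contrasts, with groups again not overlapping and the same level of 5 TPM in the higher group of the pair. Not every gene meeting that rule is reported. Alternatives were the pseudocount, the filter, the scaling, the libraries fitted, the variance moderation, the replicate block, the call rule and leaving out each library. Promoter windows and gene positions are from RefSeq (GRCh38.p14) and exons from GENCODE 29, matched by symbol, with 10995 of the 14773 genes tested having a window.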

Additional observations from a re-analysis of the deposited data

Results flagged for a closer look

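For 2 of the list and named genes the change from hPSC was called in opposite directions in pNE and aNE, and the difference between pNE and aNE itself passed the limma test. HES3 was lower than hPSC in pNE (-2.94) and higher in aNE (1.47), with a difference of -4.41 on the log2 scale (adjusted p = 1.82e-07). LRAT was higher than hPSC in pNE (1.62) and lower in aNE (-1.99), with a difference of 3.62 (adjusted p = 1.79e-08). Both changes are measured from the same hPSC libraries. With 2 libraries a group, no sample could be set apart from its group.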

How the results depend on the processing

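Without the fold minimum, calls at adjusted p under 0.05 rose to 3548 higher and 3046 lower against hPSC and to 1296 and 1020 against aNE. With a minimum log2 fold change of 2 they were 316 and 181, and 105 and 23. Under the other pseudocount, filters, scalings, fits and variance moderations each of these 4 counts stayed within 1.5 times its main value. No named gene that was called in the main fit or in the alternative turned direction. For genes called in neither, the direction was not compared. Leaving out 1 library at a time gave 1022 to 1323 genes higher and 927 to 1066 lower than hPSC, and 374 to 436 higher and 179 to 284 lower than aNE. The share of calls against hPSC that were higher was 55.5%, 50.8% with median-ratio scaling 47.9% with quantile normalization and 48.9% without pNE replicate 2. Of 166 list and named genes called against hPSC, 28 had no value under the filter at 5 TPM. Wherever they were tested, 150 of the 166 kept the call under every alternative but the fold minimum of 2, and 130 of these were tested under all of them. Replicates share only a number: deviations of same-numbered pNE and hPSC libraries correlated at 0.0048 and of pNE and aNE at -0.028, and with the replicate block 1213 and 972 genes were called against hPSC and 400 and 202 against aNE. The unknown depth limits what can be said of values below about 1 TPM.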
